A study of Danio rerio with 2 samples.

Results

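The genes described here are buc, dnd1, tdrd1, tdrd6 and tdrd7a, which encode proteins of the zebrafish germ plasm and its germ granules. They are the 5 genes chosen by symbol from the 4591 listed in each deposited table, and each occurs on a single line. All 5 passed the filter on low values, an average deposited value of 1 or more, which 3524 of the listed genes passed. Shares of all genes given below cover listed genes only, and many symbols of the related lists are not among them. Whole embryos of the Tuebingen strain had received either 5 ng of a phf14 morpholino or 5 ng of a standard morpholino at the 1-cell stage, and were collected at 4.7 h after fertilization. Morpholinos are synthetic oligomers that pair with a transcript and hinder its translation or splicing, and the standard one serves as the control. PHF14 recognizes histone H3 on chromatin, and the series asks what it does when the zygote first transcribes its own genome. Each group has 1 library, so the values below have no replicate error and differences between libraries could not be tested. The number of embryos behind a library is not given in the labels, and phf14 itself was not analysed here, so the knockdown was not checked.

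Germ plasm is a maternal assembly of RNA and protein that the oocyte passes to the egg, and the few cells that inherit it become the primordial germ cells. Buc organizes it in the oocyte and embryo. Tudor domain proteins bind dimethylated arginines on partners such as Buc and the Piwi proteins, and so hold germ granules together, while Dnd1 binds germ plasm mRNAs and shields them from the microRNA miR-430, which clears maternal mRNA from somatic cells. dnd1 therefore belongs with the other genes by its place in germ granules, since it encodes an RNA-binding protein with no Tudor domain. Of 6 germ plasm and germ cell markers, nanos3, dnd1, tdrd7a and buc were listed, whereas ddx4 and dazl were not analysed here. Each of these 4 listed markers was above 0 in both libraries, as were nearly all listed genes. Of the 4591, only 25 were at 0 in the phf14 morpholino library and 26 in the standard morpholino library. They summed to 51.22 in the phf14 morpholino library and 37.41 in the standard morpholino library, across genes on a scale that is not stated. Because dnd1, tdrd7a and buc are themselves genes described here, the sum is not a separate measure of germ cells. buc was higher by 7.62 in the phf14 morpholino library, tdrd7a by 4.01 and dnd1 by 0.95. nanos3 was at 10.76 in the phf14 morpholino library and 9.53 in the standard morpholino library. RNA from whole embryos does not show which cells hold a transcript. Differences in germ cell number, in germ plasm RNA per cell and in maternal RNA left in somatic cells cannot be told apart.

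The deposited value is an expression signal whose scale and normalisation are not stated, so fold differences are between libraries for the same gene. Ranks and level bins order genes by the deposited values, which may depend on transcript length. All 5 genes had a higher value in the phf14 morpholino library, against 62.3% of the 3524 genes that passed the filter, and 0 had a lower value, against 37.2%. The excess was large for tdrd1 and buc, intermediate for tdrd7a, small for dnd1 and close to nothing for tdrd6. On the scale used throughout, the log2 of (value + 1) in the phf14 morpholino library minus that in the standard morpholino library, the 5 genes had a median of 0.46. The median over the 3524 genes was 0.11 and their SD 0.35, a spread that mixes real differences with measurement error.

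**Figure D1:**
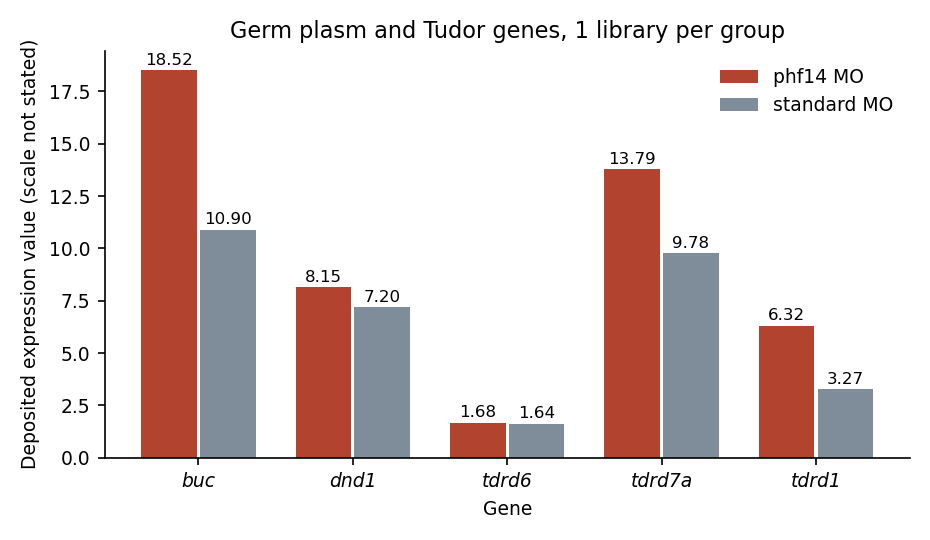
Deposited expression value (vertical axis, scale not stated) of each gene in the phf14 morpholino library (left bar) and the standard morpholino library (right bar), 1 library per group with no error bar. Heights may be compared within a gene only. The left bar is taller for buc, tdrd7a and tdrd1, and slightly taller for dnd1 at 8.15 and 7.20. It is nearly level with the right bar for tdrd6 at 1.68 and 1.64.

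By role, the germ plasm organizer comes first. buc (ENSDARG00000096095), without which oocytes form no Balbiani body and embryos no germ plasm, was at 18.52 in the phf14 morpholino library and 10.90 in the standard morpholino library. The phf14 morpholino value was 1.70 times the other, a log2 ratio of 0.71. Only 71 of the 3524 genes had a higher log2 ratio, which puts buc above 98.0% of them. When the 3524 genes were ranked by mean value and cut into 10 level bins of equal size, the 352 genes of its own bin had a median log2 ratio of 0.07 and an SD of 0.34, and 6 of them exceeded buc. Its place among all listed values was the 87.7th percentile in the phf14 morpholino library and the 80.7th in the standard morpholino library, a comparison of ranks that does not depend on scaling.

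The RNA-binding gene dnd1 (ENSDARG00000022813), which germ cells need in order to migrate and to keep their identity, was at 8.15 in the phf14 morpholino library and 7.20 in the standard morpholino library. The ratio was 1.13 and the log2 ratio 0.16, or 0.05 relative to the median gene. Its log2 ratio lay above 55.8% of the 3524 genes, near the middle of the distribution, and 0.02 above the median of the 352 genes of its level.

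The Tudor domain genes differed among themselves. tdrd1 (ENSDARG00000007465), which encodes a scaffold that binds the zebrafish Piwi proteins in germ granules, was at 6.32 in the phf14 morpholino library and 3.27 in the standard morpholino library. Its ratio of 1.93 was the highest of the 5, with a log2 ratio of 0.78 that 40 of the 3524 genes exceeded. Of the 353 genes of its level, which had a median of 0.18, 5 were higher. Its rank among all listed values was at the 67.7th percentile in the phf14 morpholino library and the 54.2nd in the standard morpholino library.

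tdrd7a (ENSDARG00000032808), which shapes germ granules and whose mRNA is a target that Dnd1 protects, was at 13.79 in the phf14 morpholino library and 9.78 in the standard morpholino library. The ratio was 1.41 and the log2 ratio 0.46, above 88.0% of all genes and 89.2% of the 353 of its level. nanos3, another germ cell mRNA protected by Dnd1, stood closer to dnd1 itself than to tdrd7a, at 10.76 in the phf14 morpholino library and 9.53 in the standard morpholino library (log2 ratio 0.16).

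tdrd6 (ENSDARG00000070052, tdrd6a in RefSeq) encodes a multi-Tudor protein that binds Buc and helps to gather germ plasm into large aggregates. It was at 1.68 in the phf14 morpholino library and 1.64 in the standard morpholino library. The phf14 morpholino value was 1.02 times the other, and this ratio ran from 1.02 to 1.03 when only the rounding of the deposited values to 2 decimals was allowed for. Its log2 ratio of 0.02 was 0.09 below the median gene, so its direction turns when the libraries are centred on that gene. Of the 352 genes of its level, 243 had a higher log2 ratio. The genes for Buc and for this binding partner thus had log2 ratios of 0.71 and 0.02.

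**Figure D2:**
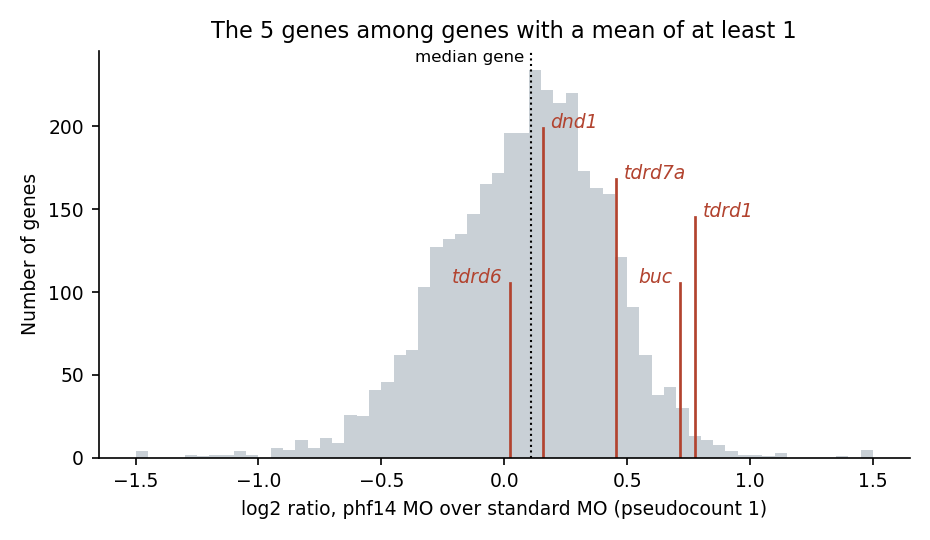
Number of genes (vertical axis) by log2 ratio, phf14 morpholino over standard morpholino library (horizontal axis, pseudocount 1), for the 3524 genes that passed the filter; genes beyond the axis limits are counted in the end bars. Vertical lines mark the 5 genes, their heights chosen for legibility, and the dotted line the median gene at 0.11: tdrd6 lies below it, dnd1 beside it, and buc (0.71) and tdrd1 (0.78) in the upper tail.

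Past 1.5-fold on this scale, 2 of the 5 genes, buc and tdrd1, were higher in the phf14 morpholino library, against 4.97% of the 3524 genes. None of the 5 was lower by as much, against 2.87%. None was past 2-fold in either direction, against 0.341% of genes higher and 0.482% lower. These shares are descriptions of the 2 libraries, and 5 genes chosen with earlier results known do not make a test. The count past 1.5-fold depended on the settings: it was 1 with a trimmed mean scaling, against 2.01% of all genes, and 0 with a pseudocount of 5, against 0.880%. With a pseudocount of 0.1 it stayed at 2, against 11.2% of all genes.

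Ratios between the genes within a library are free of any scaling between libraries. From the deposited values without a pseudocount, tdrd1 over tdrd6 was 1.89 times as high in the phf14 morpholino library as in the standard morpholino library. tdrd1 over dnd1 was 1.71 times and buc over tdrd6 1.66 times as high. tdrd7a over dnd1 was 1.25 times as high, and tdrd1 over buc 1.14 times. The order tdrd1, buc, tdrd7a, dnd1, tdrd6 thus holds for these ratios whatever factor is applied to a library. With a pseudocount of 5, buc (log2 ratio 0.56) stood above tdrd1 (0.45), and no spread between libraries is available to say which neighbours in that order differ.

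The ratio also varied with level across the tables. The most abundant of the 10 level bins had a median log2 ratio of -0.15, and the other bins had medians between 0.07 and 0.18. None of the 5 genes falls in that bin: counted from the lowest level they lie in bins 2 (tdrd6), 6 (tdrd1), 7 (dnd1), 8 (tdrd7a) and 9 (buc). Relative to the median of its own bin, tdrd1 was at 0.60, buc at 0.64, tdrd7a at 0.35, dnd1 at 0.02 and tdrd6 at -0.12 on the log2 scale.

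The few other transcripts of germ plasm and primordial germ cells that were measured were also higher. Of 27 symbols in this list 7 were listed and 5 had a mean of at least 1. In the phf14 morpholino library all 5 were higher, against 62.3% of the 3524 genes, and all 5 lay above the median gene. Their median log2 ratio was 0.31, or 0.23 over all 7 with no filter. None was past 1.5-fold with the pseudocount of 1, against 4.97% of the 3524 genes higher. Without the pseudocount the ratio of rgs14a was 1.66. The share of all genes past 1.5-fold higher was not computed without it, and was 11.2% with a pseudocount of 0.1. rgs14a, a regulator of G protein signalling whose mRNA lies in the germ plasm, was at 3.63 in the phf14 morpholino library and 2.19 in the standard morpholino library (0.54). rbpms2b, which encodes an RNA-binding partner of Buc, was at 30.66 in the phf14 morpholino library and 22.72 in the standard morpholino library (0.42). itm2cb had a log2 ratio of 0.31, the carbonic anhydrase gene ca15b 0.23, and nanos3 the lowest, 0.16, which was 0.05 above the median gene.

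In the piRNA pathway Piwi proteins with small RNAs silence transposons, and Tdrd1 acts as a scaffold. Of the 25 symbols in this list only 4 were measured. In the phf14 morpholino library 3 were higher and 1 was lower, against 62.3% and 37.2% of the 3524 genes. Of the 4, 2 lay on each side of the median gene. asz1, which encodes a germ cell scaffold on mitochondria, was at 6.69 in the phf14 morpholino library and 4.54 in the standard morpholino library (log2 ratio 0.47). fkbp6, a co-chaperone gene of the pathway in mouse, was at 6.90 in the phf14 morpholino library and 5.09 in the standard morpholino library (0.38). tdrkh, which has a Tudor and KH domains, had 0.03, and pld6, the gene of a mitochondrial surface enzyme of piRNA biogenesis, -0.13. The list median was 0.20. No Piwi gene was analysed here.

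**Figure D3:**
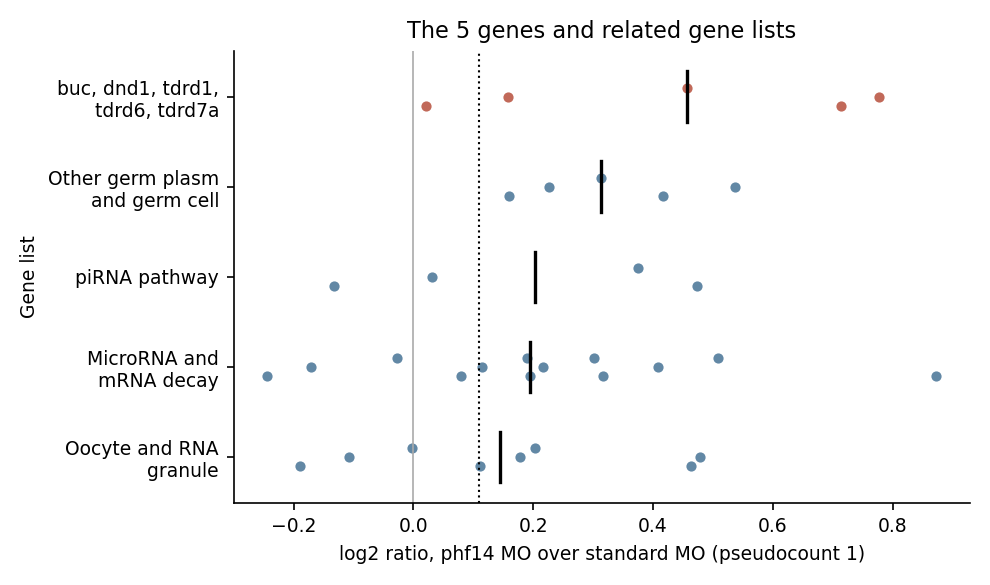
Log2 ratio, phf14 morpholino over standard morpholino library (horizontal axis, pseudocount 1) for the 5 genes and for measured genes of related lists with at least 4 members; each point is a gene, the black bar the list median, the dotted line the median gene and the grey line 0. The 5 genes have a median of 0.46 and the 5 other germ plasm and germ cell genes 0.31, while the medians of the other lists lie between 0.14 and 0.20.

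Further Tudor domain genes were few. tdrkh and akap1a, a kinase anchor gene with a log2 ratio of 0.11, were the measured genes of a list of other Tudor genes linked to methylated arginine. Whether their proteins bind methylated arginine was not tested here. Both genes lay far below tdrd1 and above tdrd6, with tdrkh at 0.03 and tdrd6 at 0.02. Of chromatin proteins whose Tudor domains read histone lysines, the histone demethylase genes kdm4c (0.28) and kdm4ab (-0.04) were measured. arid4b, in the same list, had a mean below 1, at 0.76 in the phf14 morpholino library and 0.55 in the standard morpholino library. prmt6, the measured arginine methyltransferase gene, was at 15.77 in the phf14 morpholino library and 14.63 in the standard morpholino library (0.10). For germ cell guidance, the chemokine gene cxcl12a was close to level (0.04). It was at 28.81 in the phf14 morpholino library and 27.92 in the standard morpholino library. Its bin, the most abundant, had a median log2 ratio of -0.15. rgs14a, given above, was the other measured gene of the guidance list, whose median was 0.29.

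Of 43 symbols in the list of microRNA and mRNA decay genes, 14 were listed and 13 had a mean of at least 1. cnot7, listed below that mean, was at 1.01 in the phf14 morpholino library and 0.64 in the standard morpholino library. Its ratio without the pseudocount was 1.58. Of the 13 measured genes, 10 were higher in the phf14 morpholino library and 3 lower, against 62.3% and 37.2% of the 3524 genes. Of the 13, 9 were above the median gene, and the list median was 0.20. btg4, an oocyte adaptor for deadenylation, was the 1 gene past 1.5-fold with the pseudocount of 1, against 4.97% of the 3524 genes. It was at 13.45 in the phf14 morpholino library and 6.89 in the standard morpholino library (0.87). The microRNA processing gene drosha followed at 0.51, a ratio of 1.56 without the pseudocount, with the ubiquitin ligase gene cnot4b at 0.41. With a pseudocount of 0.1, 11.2% of all genes were past 1.5-fold higher. At the other end stood ago2, which encodes an Argonaute protein, at 11.85 in the phf14 morpholino library and 14.22 in the standard morpholino library (-0.24). Then came the mRNA-destabilizing gene zfp36l1b (-0.17) and tob1b (-0.03).

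Oocyte polarity and RNA granule genes had 8 measured members of 27 symbols, of which 5 were higher and 3 were lower after the phf14 morpholino, a share close to the 62.3% of all genes that were higher, and a median of 0.14. The RNA helicase gene ddx6 (0.48, a ratio of 1.58 without the pseudocount), lsm14b (0.46) and zar1l (0.20) were at the upper end. At the lower end were the RNA-binding gene ybx1 (-0.19), org (-0.11) and cpeb4b (-0.0025). ybx1 lies in the most abundant level bin, whose median log2 ratio was -0.15. Among markers of later tissues no muscle gene was analysed here. Of 11 blood and endothelial symbols 1 was measured, lcp1, a leukocyte gene in later tissue. It was at 69.16 in the phf14 morpholino library and 85.59 in the standard morpholino library (-0.30). lcp1 is in the same most abundant level bin as ybx1. Which cells hold this RNA at 4.7 h is not known from whole embryos.

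**Figure D4:**
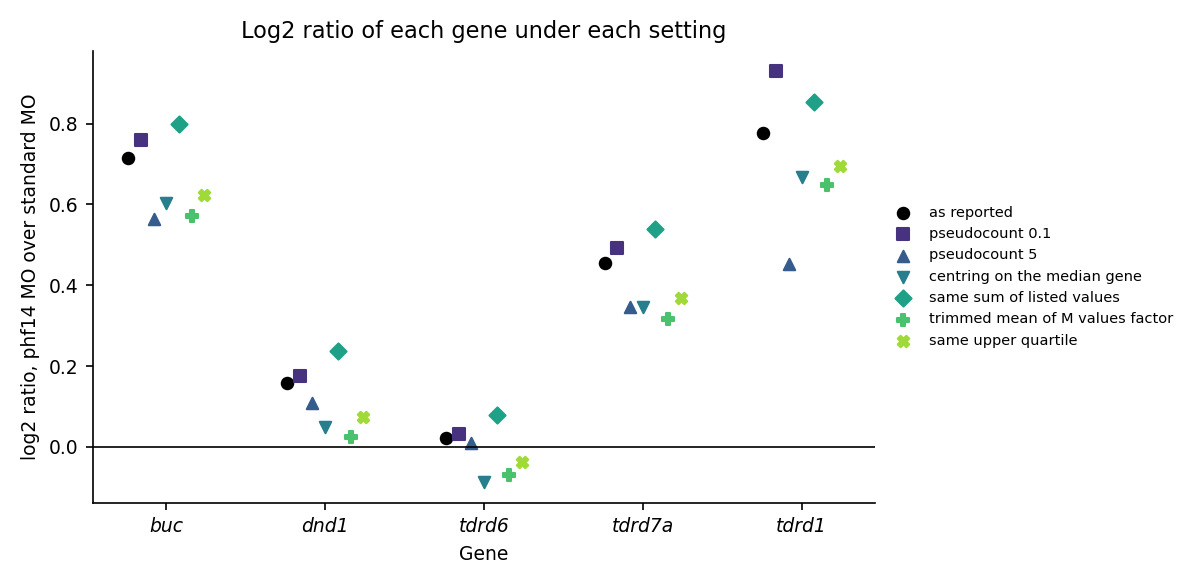
Log2 ratio, phf14 morpholino over standard morpholino library (vertical axis) for each of the 5 genes (horizontal axis) under 7 settings of pseudocount and scaling, shown by symbol; each point is a single comparison of 2 libraries. buc, tdrd7a, tdrd1 and dnd1 stay above 0 under the settings drawn, and tdrd6 lies on both sides of 0.

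For each of the 5 genes the nearest were sought among the other listed genes with an identifier and a standard symbol. Symbols of other forms, such as those that start with zgc or si:, were left out. The distance was Euclidean, of log2 (value + 1) over the 2 libraries, which with 2 values per gene measures only alike level and ratio. buc was nearest to fbxw2 (distance 0.04) and fbxo45 (0.07), both F-box genes of ubiquitin ligases. tdrd1 was nearest to fbxl2 (0.05), another F-box gene, and kdsr (0.08), a gene of sphingolipid synthesis. tdrd7a was nearest to nfs1 (0.03) and slc35e1 (0.03). dnd1 was nearest to katna1 (0.02), which encodes a microtubule-severing subunit, and grip2a (0.03). tdrd6 was nearest to nfat5a (0.02) and prkab1a (0.02).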

How the data were processed

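For each library the authors deposited a table of Ensembl identifiers, gene symbols and an expression signal, named only as expression per the file headers. The values are never negative and have at most 2 decimals. Aligner, genome build, quantification, scaling and depth: not given in the sources used here, so no counting interval is given. Listed values summed to 71136 in the phf14 morpholino library and 75675 in the standard morpholino library. Per the labels' protocols, libraries were made with an Illumina TruSeq RNA kit.

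Log2 ratios used a pseudocount of 1, which understates the change of low genes, and genes with a mean of at least 1. Genes of a related list are called measured where they reach that mean. Level bins rank these genes by mean value and cut them into 10. With 1 library per group no test was run. Symbols are those of the tables. The 5 genes and 10 related lists were chosen with earlier results of these data known. Genes named are the 5, up to 3 at each end of each list, and the 2 nearest genes of each. A gene in 2 lists counts in both. Alternatives were pseudocounts of 0.1 and 5, 4 scalings, no filter, a mean of at least 5, and a mean in place of the median. The calculation was tested on simulated data, with planted changes larger than those of the 5 genes and at levels most of them do not reach. That test checks the calculation, not how well changes like theirs are detected. Python 3.11.15, numpy 2.4.6 and pandas 2.3.3 were used.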

Additional observations from a re-analysis of the deposited data

How the results depend on the processing

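Across pseudocounts of 0.1 and 5 and 4 scalings (the median gene, the sum of listed values, an unweighted trimmed mean of M values with trims of 30% on ratios and 5% on levels, and the upper quartile), the log2 ratio of buc ran from 0.56 to 0.80, tdrd1 from 0.45 to 0.93, tdrd7a from 0.32 to 0.54 and dnd1 from 0.02 to 0.24. tdrd6 turned to -0.0879 with centring on the median gene, -0.0710 with the trimmed mean factor and -0.0374 with the upper quartile. The count of higher genes was then 4 of 5 under each of these, against 50%, 49.4% and 54.7% of all genes. With a mean of at least 5, tdrd1 and tdrd6 dropped out; 3 genes were left, of which 3 were higher (56.2% of all genes) and 1 was past 1.5-fold (5.53%). That count past 1.5-fold was also 1 with the trimmed mean factor (2.01% of all genes) and 0 with a pseudocount of 5 (0.880%). It stayed at 2 with a pseudocount of 0.1 (11.2% of all genes) and with no filter (4.09%). The same count of 2 held for centring on the median gene (2.36%), the sum of listed values (8.12%) and the upper quartile (3.15%). With a pseudocount of 5, which shrinks log2 ratios, buc (0.56) and tdrd1 (0.45) both fell below the log2 of 1.5, 0.585. The other changes in these counts followed from fewer genes or a changed scale. The median of the 5 genes ran from 0.32 to 0.54, that of the other germ plasm list from 0.18 to 0.39, the piRNA list from 0.08 to 0.28, the microRNA and decay list from 0.09 to 0.27 and the oocyte and granule list from 0.0089 to 0.22. No paired analysis was possible because there is 1 library on each side; for the same reason leaving one out was not run. Depth is unknown.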

Other observations

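The values in this part were picked after the main ones had been seen. buc2l, which is named after buc and annotated in RefSeq as a long noncoding RNA, was at 3.02 in the phf14 morpholino library and 2.35 in the standard morpholino library. Its log2 ratio of 0.26 lay between those of dnd1 and buc.

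In the RefSeq gene order of assembly GRCz12tu, no 2 of the 5 genes are neighbours. Of the 10 protein-coding genes next to them, 3 were listed. si:ch211-225b10.3, beside tdrd1, was at 2.83 in the phf14 morpholino library and 5.43 in the standard morpholino library (log2 ratio -0.75), opposite in direction to tdrd1 at 0.78. rnf152, a ubiquitin ligase gene beside buc, was nearly level at 3.53 in the phf14 morpholino library and 3.46 in the standard morpholino library (0.02). pla2g7, a phospholipase gene beside tdrd6, was at 1.64 in the phf14 morpholino library and 1.16 in the standard morpholino library (0.29).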
